A study of Mus musculus with 8 samples.

Results

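Effector-phenotype CD8 T cells of wild-type (WT) C57BL/6 mice were compared between liver and spleen. They were chosen by their transcripts: a kept WT barcode with at least 2 summed UMIs (unique molecular identifiers, 1 per captured transcript) of Klrg1, Cx3cr1 and S1pr5 and 0 UMIs of Pdcd1 and Ncr1. The rule took 109 of 5335 kept barcodes of WT spleen and 243 of 3150 of WT liver, 352 of 8485 in all, out of 18732 kept barcodes of the whole series. The series holds CD8 T cells sorted from both organs of WT mice and of EomesTG mice, which carry 2 copies of an Eomes transgene on the same C57BL/6 background, sequenced as 10x Genomics 5′ expression and T cell receptor (TCR) libraries. The sources used here give neither age nor sex, nor the promoter that drives the transgene, and name no treatment. Cells of 3 mice per strain were pooled before the sort, so each organ of a strain is 1 library. No difference below has a replicate check, no p-value was computed, and organ, preparation of the organ and library cannot be told apart. Levels are given as CPM, the UMIs of a gene scaled to a total of 1000000 UMIs over the cells. Intervals are exact 95% intervals that cover counting error only.

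KLRG1 and CX3CR1 mark the most differentiated effector CD8 T cells, which carry granzymes and perforin and circulate through blood and tissue. KLRG1 is an inhibitory receptor for cadherins, CX3CR1 is the receptor for fractalkine, and S1PR5 is a sphingosine-1-phosphate receptor that helps lymphocytes stay in the circulation. The factors ZEB2 and T-bet (Tbx21) drive this state, while TCF1 (Tcf7) and IL-7 receptor (Il7r) belong to naive and central memory cells.

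The cells made up 2.04% (1.68 to 2.46) of the kept barcodes in spleen and 7.71% (6.81 to 8.70) in liver. With every cell thinned to 2000 UMIs before the rule was applied, the shares were 1.24% (0.954 to 1.58) and 4.98% (4.22 to 5.82). The same rule took 0.506% of 5726 EomesTG spleen barcodes and 1.42% of 4521 EomesTG liver barcodes. The condition on Pdcd1 removed 15 spleen and 36 liver cells that had reached the sum, and the condition on Ncr1 removed 0 and 7.

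The 109 spleen cells held 530419 UMIs, with a median of 3715 per cell, and the 243 liver cells held 1418271, with a median of 4205. Of the T cell genes that check the label, Cd3e was detected in 107 of 109 and 236 of 243 cells and Cd8b1 in 103 and 232. Of 4 CD4 T cell markers, 3 were detected in spleen and 2 in liver, with summed levels of 7.54 and 52.9 CPM, of which Ctla4 held 2 and 70 UMIs and Cd4 0. Of 6 B cell markers, 3 were detected in each organ, in 27 spleen and 67 liver cells, with summed levels of 83.0 and 93.8 CPM. Ighm held 31 and 99 of these UMIs, and Cd79a and Ms4a1 had 0. Of 10 monocyte and macrophage markers, 1 and 3 were detected, at 18.9 and 26.8 CPM, of which Cd68 held 10 and 35 UMIs, and Lyz2, Csf1r and C1qa had 0. Of 11 hepatocyte markers, 1 was detected in spleen and 4 in liver, with 1 and 4 summed UMIs. The rule itself set Ncr1 at 0, and of 5 other NK cell markers 4 were detected in spleen and 5 in liver, with summed levels of 207 and 255 CPM, of which Eomes held 62 of 110 and 167 of 362 UMIs. Tyrobp, an adaptor of NK receptors, had 8 UMIs in 3 spleen cells and 77 UMIs in 24 liver cells. The part of these transcripts in the results was not tested. The libraries shared 23 deposited barcodes, of which 0 were among these cells.

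The genes that chose the cells are given as a description. The summed UMIs of Klrg1, Cx3cr1 and S1pr5 had a median of 3 and a maximum of 13 in spleen and a median of 4 and a maximum of 31 in liver. All 3 receptors were detected together in 32 of 109 spleen cells (29.4%) and in 78 of 243 liver cells (32.1%). In CPM, Klrg1 stood at 249 in spleen and 307 in liver, Cx3cr1 at 309 and 315, and S1pr5 at 292 and 243. The 34 spleen and 71 liver cells at the threshold of 2 UMIs had Zeb2 levels of 115 and 176 CPM, and those just outside it, the 80 spleen and 146 liver cells with 1 UMI, had 66.2 and 69.0. Cells with 3 UMIs or more had 278 and 298.

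Zeb2, the marker that the rule did not use, was detected at close to the same level in both organs. It stood at 223 CPM (184 to 266) in spleen and 266 (240 to 294) in liver, a log2 ratio of 0.26 (-0.05 to 0.57). Naive-phenotype cells of the same libraries, described below, had a Zeb2 UMI in 0.0786% and 0.619% of cells after thinning, against 37.9% and 40.3% of the effector-phenotype cells.

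Across genes, 7330 had at least 20 UMIs over both organs. A gene was called when its level differed at least 1.5-fold and its counting interval lay on that side of equality. Of the 7330 genes, 395 (5.39%) were called higher and 186 (2.54%) lower in liver, and the median log2 ratio was 0.04. The division of the calls depended on the scaling. Higher genes were 68.0% of calls in CPM of all UMIs and 57.7% (332 higher, 243 lower) with ratios centred on the median gene. They were 48.7% (290 higher, 306 lower) in CPM without mitochondrial and ribosomal protein genes. Ribosomal protein transcripts held 27.7% of the UMIs of the spleen cells and 22.8% of those of the liver cells, and leaving them and the mitochondrial ones out shifted every other log2 ratio by -0.10.

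The list of genes of the immediate early response and of tissue dissociation, called immediate early genes here, differed most by share. Immediate early genes are transcribed within minutes of a stimulus. Of 15 measured genes of the list, 14 were called higher in liver and 0 lower (median log2 ratio 2.31). The lists overlap: for example, Nr4a1 and Egr1 are also counted under TCR signalling, Nfkbia under NF-kappaB and survival genes, and Klf6 under transcription factors. Nr4a1, an orphan nuclear receptor induced by TCR signals, had 2 UMIs in the spleen cells and 519 in the liver cells, 3.77 CPM (0.457 to 13.6) against 366 (335 to 399). Fos, a subunit of the transcription factor AP-1, had 5 and 539 UMIs, or 9.43 (3.06 to 22) and 380 (349 to 414) CPM, a log2 ratio of 5.33 (4.10 to 6.96). Dusp1, a phosphatase that turns off MAP kinases, stood at 11.3 and 405 CPM, and its log2 ratio was 5.16 (4.03 to 6.61). Junb, another AP-1 subunit, was detected well in both organs and stood at 272 (229 to 320) in spleen and 2165 (2089 to 2243) in liver. Jun went from 49.0 to 428 CPM.

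Heat shock genes, whose chaperones refold proteins, were higher in 5 of 10 measured cases and lower in 0. Hspa1a had 0 UMIs in the 109 spleen cells and 477 in the 243 liver cells, 336 CPM. That is 59.5-fold higher when the spleen is set at a floor of 3 counts over the 530419 UMIs of its chosen cells. The lower bound of the log2 ratio of Hspa1a was 5.59. Hspa1b stood at 1.89 and 133 CPM. The 2 genes are near-identical neighbours on chromosome 17, Hspa1a from 34969190 to 34972156 and Hspa1b from 34956436 to 34959238 of GRCm38, so the division of reads between them is uncertain. Dnajb1, a co-chaperone, stood at 75.4 and 351.

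Among NF-kappaB and survival genes, 7 of 17 were called higher and 0 lower. Tnfaip3, which encodes the feedback inhibitor A20, stood at 26.4 (14.4 to 44.3) in spleen and 333 (303 to 364) CPM in liver. Nfkbia, which encodes the inhibitor that holds NF-kappaB in the cytoplasm, stood at 119 (91.3 to 152) and 518 (481 to 557), a log2 ratio of 2.13 (1.75 to 2.52). Bcl2a1d and Mcl1, both anti-apoptotic, had log2 ratios of 1.35 and 0.67.

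**Figure D1:**
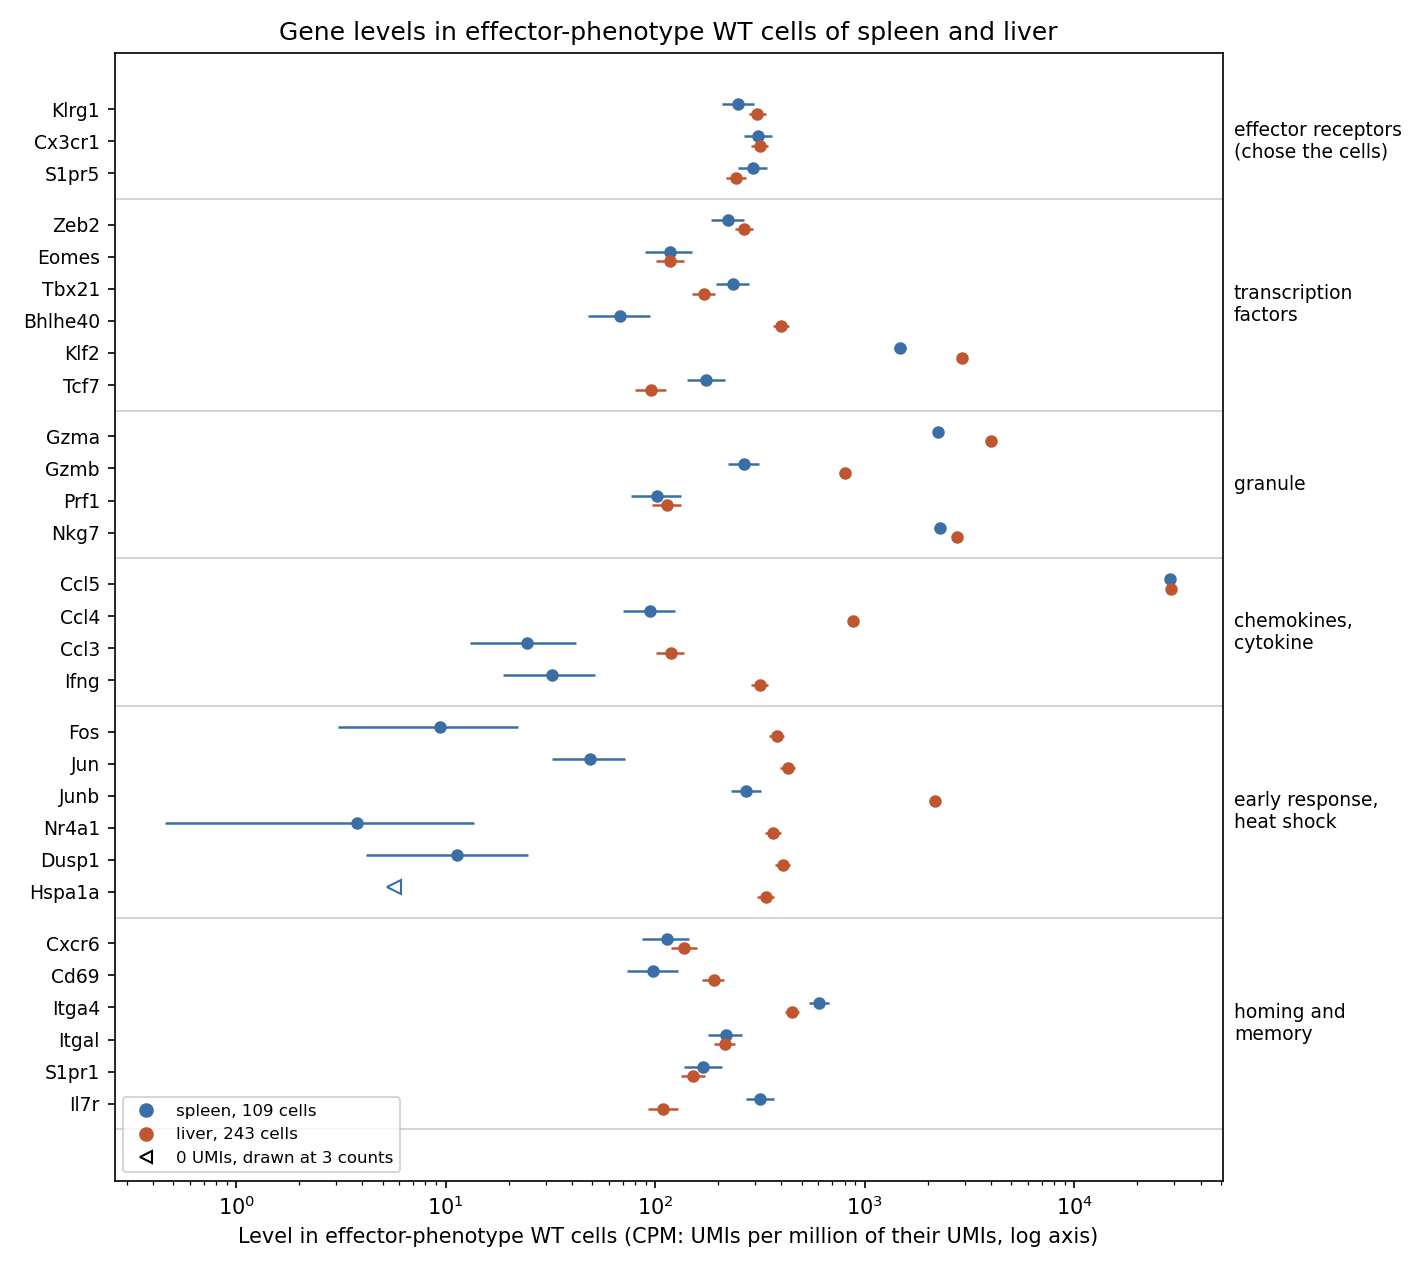
Level of named genes in the effector-phenotype cells of WT spleen (109 cells, blue) and WT liver (243 cells, orange), in CPM on a log axis. Points are 1 library each, bars are exact 95% Poisson intervals, and the open triangle marks 0 UMIs at the floor of 3 counts. Klrg1, Cx3cr1, S1pr5, Zeb2, Eomes and Ccl5 lie close together in the 2 organs, Fos, Nr4a1, Dusp1, Ccl4 and Ifng lie far to the right in liver, and Il7r lies to the left.

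Since genes of the early response were higher together, the promoters of 13 named genes, from RefSeq on GRCm38.p6, were searched for 3 motifs. Matches were found in 4 genes, Dusp1, Nfkbia, Tnfaip3 and Gzmb, and in none of the windows of the other 9, which are Fos, Jun, Junb, Nr4a1, Hspa1a, Hspa1b, Rgs16, Ifng and Ccl3. The 2 windows below were chosen after the search, because they hold matches. Each run of 300 bases goes from 250 bases before the start site to 50 after it on the gene's strand. Capitals mark matches on either strand to the CRE motif TGACGTCA, the AP-1 motif TGACTCA, or GGGANTTTC, the first bases of an NF-kappaB element; none of the matches overlap. The Dusp1 window lies at chr17:26508423-26508722 on the minus strand and that of Nfkbia at chr12:55492598-55492897, also on the minus strand.
Dusp1: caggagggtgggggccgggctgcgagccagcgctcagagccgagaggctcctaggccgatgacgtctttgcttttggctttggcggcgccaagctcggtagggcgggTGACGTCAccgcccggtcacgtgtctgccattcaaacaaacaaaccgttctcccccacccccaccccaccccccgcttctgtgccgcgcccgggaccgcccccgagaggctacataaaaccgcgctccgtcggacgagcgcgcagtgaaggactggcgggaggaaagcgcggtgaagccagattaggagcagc
Nfkbia: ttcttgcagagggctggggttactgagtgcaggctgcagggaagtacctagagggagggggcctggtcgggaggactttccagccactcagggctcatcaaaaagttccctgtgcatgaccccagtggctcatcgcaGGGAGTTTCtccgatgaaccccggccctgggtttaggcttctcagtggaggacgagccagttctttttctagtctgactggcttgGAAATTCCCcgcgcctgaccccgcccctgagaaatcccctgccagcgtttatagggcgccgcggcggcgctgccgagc
Dusp1 held 1 CRE match, 143 bases before its start, and Nfkbia held 2 NF-kappaB matches, 113 and 28 bases before it. A promoter was matched by symbol for 287 of the 395 genes called higher and for 5813 of the 7330 measured. The CRE motif was in 3.48% of those called higher and 3.99% of those measured, AP-1 in 3.48% and 4.04%, and the NF-kappaB letters in 2.44% (7 genes) and 1.07%. Such a match is a description of the letters in the window.

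Of 9 measured chemokines and cytokines, which are secreted effector molecules, 4 were called higher in liver (Ccl3, Ccl4, Xcl1, Ifng) and 0 lower. Ltb, which encodes lymphotoxin beta, had a log2 ratio of -0.50 (-0.74 to -0.25), below equality and under 1.5-fold. Ccl4, a chemokine that attracts T cells and myeloid cells, stood at 94.3 CPM (70.0 to 124) in spleen and 882 (834 to 932) in liver. The cytokine gene Ifng stood at 32.0 (18.7 to 51.3) and 316 (287 to 347), and its log2 ratio was 3.30 (2.61 to 4.09). Ccl5, the most abundant of them, stood at 28740 and 29060 CPM, a log2 ratio of 0.02 (-0.01 to 0.04). Thinned to 2000 UMIs, 16 of 103 spleen cells (15.5%) and 110 of 228 liver cells (48.2%) had a Ccl4 UMI, and 6.80% and 37.3% had an Ifng UMI. In naive-phenotype cells the same shares were 0.393% and 5.26% for Ccl4 and 0.236% and 3.72% for Ifng.

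Granule genes differed unevenly: 5 of 14 were called higher and 0 lower (median log2 ratio 0.22). Gzmb, the serine protease granzyme B (chromosome 14, 56258838 to 56262260), stood at 264 CPM (222 to 312) in spleen and 800 (754 to 848) in liver, a log2 ratio of 1.60 (1.35 to 1.86). A Gzmb UMI was found in 28.2% (19.7 to 37.9) of the thinned spleen cells and 58.8% (52.1 to 65.2) of the liver cells, and in 0.314% and 0.619% of naive-phenotype cells. Gzma, granzyme A, stood at 2232 and 4011 CPM, with a log2 ratio of 0.85 (0.75 to 0.94). It fell below 1.5-fold without the conditions on Pdcd1 and Ncr1 (0.36) and with cells thinned before the rule (0.38). Fasl, the ligand of the death receptor Fas, and Srgn, the granule proteoglycan, had log2 ratios of 1.18 and 0.73. Prf1, the pore-forming perforin, stood at 102 (76.5 to 133) and 114 (96.7 to 133) and Nkg7 at 2274 and 2760, and neither was called.

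**Figure D2:**
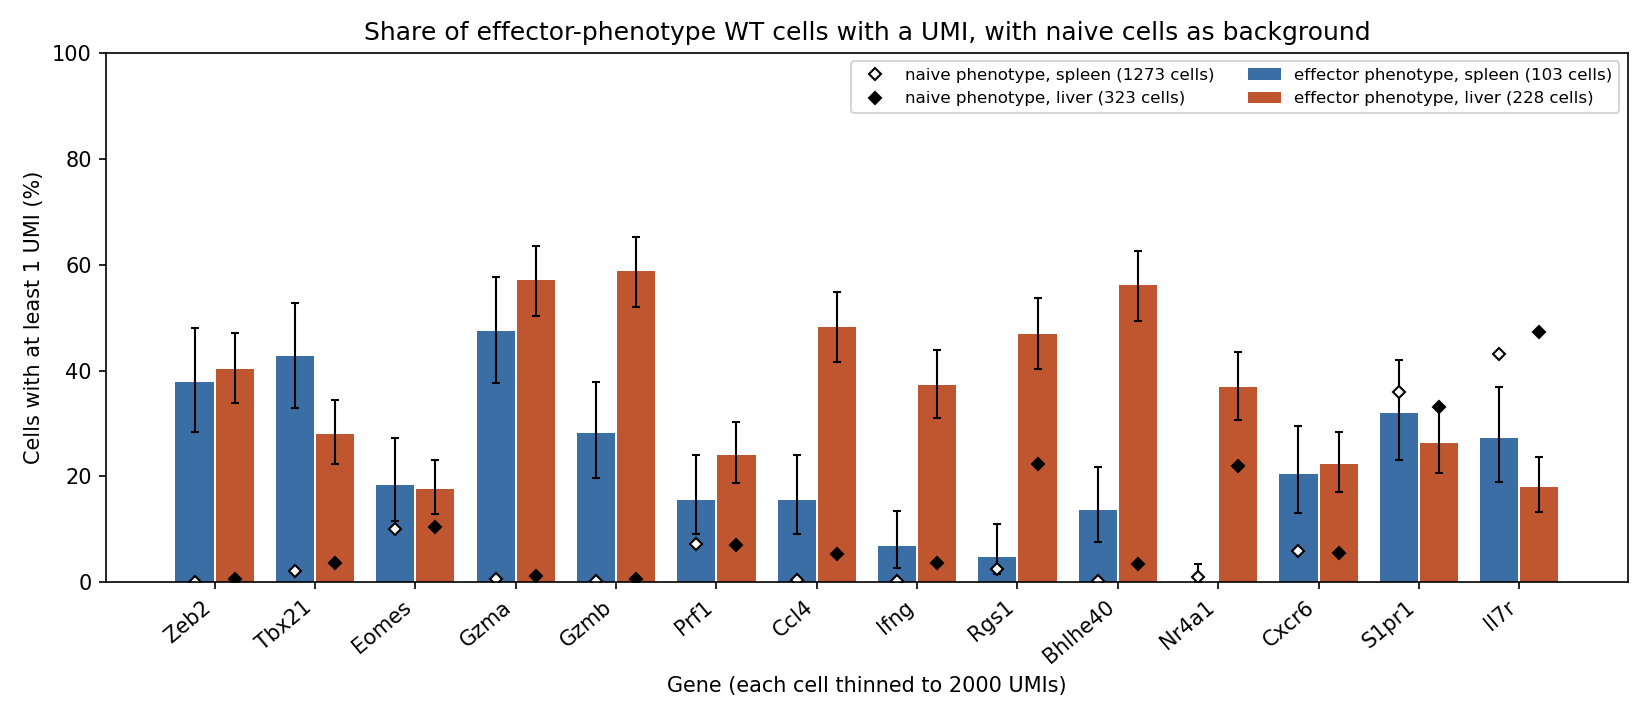
Share of cells with at least 1 UMI of each gene after thinning every cell to 2000 UMIs, in effector-phenotype WT cells of spleen (103 cells, blue bars) and liver (228 cells, orange bars), with exact 95% binomial intervals. Diamonds give naive-phenotype cells of the same libraries (1273 in spleen, open; 323 in liver, filled). Gzmb, Ccl4, Ifng, Rgs1 and Bhlhe40 are in more liver than spleen cells, Zeb2 and Eomes in like shares, and Tbx21 in fewer liver cells.

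Of 21 measured transcription factors of effector and memory T cells, 6 were called higher and 3 lower. Bhlhe40, a repressor needed for cytokine production, stood at 67.9 (47.5 to 94.0) in spleen and 398 (366 to 433) CPM in liver, the largest log2 ratio of this list at 2.55. Klf2, which keeps S1pr1 transcribed in circulating T cells, stood at 1472 (1371 to 1579) and 2913 (2825 to 3004), a log2 ratio of 0.98 (0.87 to 1.10). Prdm1, which encodes Blimp-1, had 4 and 35 UMIs and a log2 ratio of 1.71 (0.23 to 3.66). Tcf7 was lower, at 175 (142 to 215) and 95.2 (79.8 to 113), as were Id3 and Ikzf2, with log2 ratios of -1.35 and -0.90. The 23 spleen UMIs of Ikzf2 lay in 3 cells, with up to 11 in a cell. Ikzf2 was detected in 2.75% of spleen and 6.58% of liver cells. A single spleen cell held 8 of the 21 spleen UMIs of Id3. With each clone counted once, the log2 ratio of Tcf7 was -0.56, under 1.5-fold. Eomes stood at 117 and 118 CPM, a log2 ratio of 0.01 (-0.42 to 0.46), but at 0.93 with cells thinned before the rule. Tbx21 stood at 234 (194 to 279) and 170 (149 to 193). Its log2 ratio of -0.46 (-0.78 to -0.14) was below equality and under 1.5-fold.

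Naive and memory genes were the list with the most genes lower in liver, 7 of 14 measured, with 1 higher and a median log2 ratio of -0.83. Il7r, the receptor chain for the survival cytokine IL-7 (chromosome 15, 9505788 to 9530176), stood at 317 CPM (271 to 368) in spleen and 109 (92.8 to 128) in liver, a log2 ratio of -1.54 (-1.86 to -1.21). With cells thinned before the rule it was -0.56, under 1.5-fold. Ccr7, a chemokine receptor of recirculating T cells, had 26 and 34 UMIs and a log2 ratio of -1.03, and Dapl1, Actn1 and Slamf6 had -1.42, -1.05 and -0.78. Dapl1 had 16 UMIs in 9 spleen cells and 16 in 4 liver cells, of which 1 liver cell held 12. Bach2, a repressor that maintains memory cells, went the other way, with 3 and 27 UMIs and a log2 ratio of 1.75 (0.05 to 4.12).

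Ranked by how far the whole interval lay under equality, the lowest genes included Il7r, Kcnq1ot1, Mllt11, Rnpepl1, Hist2h2bb, AL590144.2, Gsto1, Parp14, Aftph, Rgs10 and Sgsh, the last 10 with log2 ratios from -2.28 to -1.32. Their counts were low, 14 to 54 UMIs in spleen and 10 to 55 in liver. With cells thinned before the rule, Gsto1 had -0.22 and Aftph -0.49, both under 1.5-fold. A single spleen cell held 26 of the 54 UMIs of Hist2h2bb, a histone gene that was detected in 5.50% of spleen and 9.88% of liver cells. Its log2 ratio of -1.39 was -0.52 as a mean over cells. Rgs10 dampens signals of G protein-coupled receptors. It stood at 66.0 and 26.1 CPM, whereas Rgs1, Rgs2 and Rgs16 of the same family were higher in liver. Rgs1, which limits chemokine responses, stood at 41.5 (26.0 to 62.8) and 537 (500 to 577). Rgs16 had 0 and 63 UMIs, 7.85-fold higher in liver with the spleen set at the floor of 3 counts. The lower bound of the log2 ratio of Rgs16 was 2.63.

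Of the receptors and integrins that place cells in tissue or circulation, S1pr1, Cxcr6, Itgal and Itga4 did not pass the call. The list counts below stand beside 5.39% of all measured genes called higher and 2.54% called lower. Of 12 measured egress and recirculation genes, 1 was higher (Klf2) and 2 lower, among them Ccr7. S1pr1, the receptor for exit from tissue, stood at 170 and 152 CPM, a log2 ratio of -0.16 (-0.52 to 0.21). Cxcr6, which holds T cells in liver sinusoids, stood at 113 (86.3 to 146) and 137 (118 to 157), a log2 ratio of 0.27 (-0.15 to 0.72). The integrin gene Itgal, which encodes the LFA-1 alpha chain, stood at 217 and 215, and Itga4, the VLA-4 alpha chain, at 605 (541 to 675) and 448 (414 to 485), a log2 ratio of -0.43 (-0.63 to -0.23). Itgam had 1 and 2 UMIs and was not measured. Of 9 measured residency genes, 5 were called higher (Cd69, Rgs1, Rgs2, Xcl1, Prdm1) and Inpp4b lower. Cd69, which is both a retention receptor and an early activation gene, stood at 98.0 (73.2 to 129) and 190 (168 to 214). Ccr2 and Cxcr4 were the called ones among 4 measured chemokine receptors, with Cxcr4 at 0 and 22 UMIs.

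Calls in the following 11 lists ranged from 0 to 5 genes. Of 14 oxidative phosphorylation genes 0 were called, of 14 glycolysis genes Gapdh, of 14 genes of MHC class I presentation Tap2, and of 16 S100, annexin and galectin genes S100a4, each higher in liver. Of 8 measured inhibitory receptor and exhaustion genes, Ctla4 (2 and 70 UMIs) and Nr4a2 (5 and 123 UMIs) were higher. Of 13 NK receptor and adaptor genes, Klrc1 and Tyrobp were higher. The terminal effector list had 5 of 17 higher (Prdm1, Bhlhe40, Gzma, Gzmb, Ccl4) and a median of 0.26. Each of these 5 is also counted in another list above. Interferon response genes had 2 of 13 higher (Isg15, Irf1), TCR signalling 3 of 17 (Nr4a1, Egr1, Dusp2), cytokine receptors 2 of 15 higher (Ifngr1, Ifnar1) and Il7r lower, and integrins and adhesion 2 of 13 (Icam1, Cd226).

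**Figure D3:**
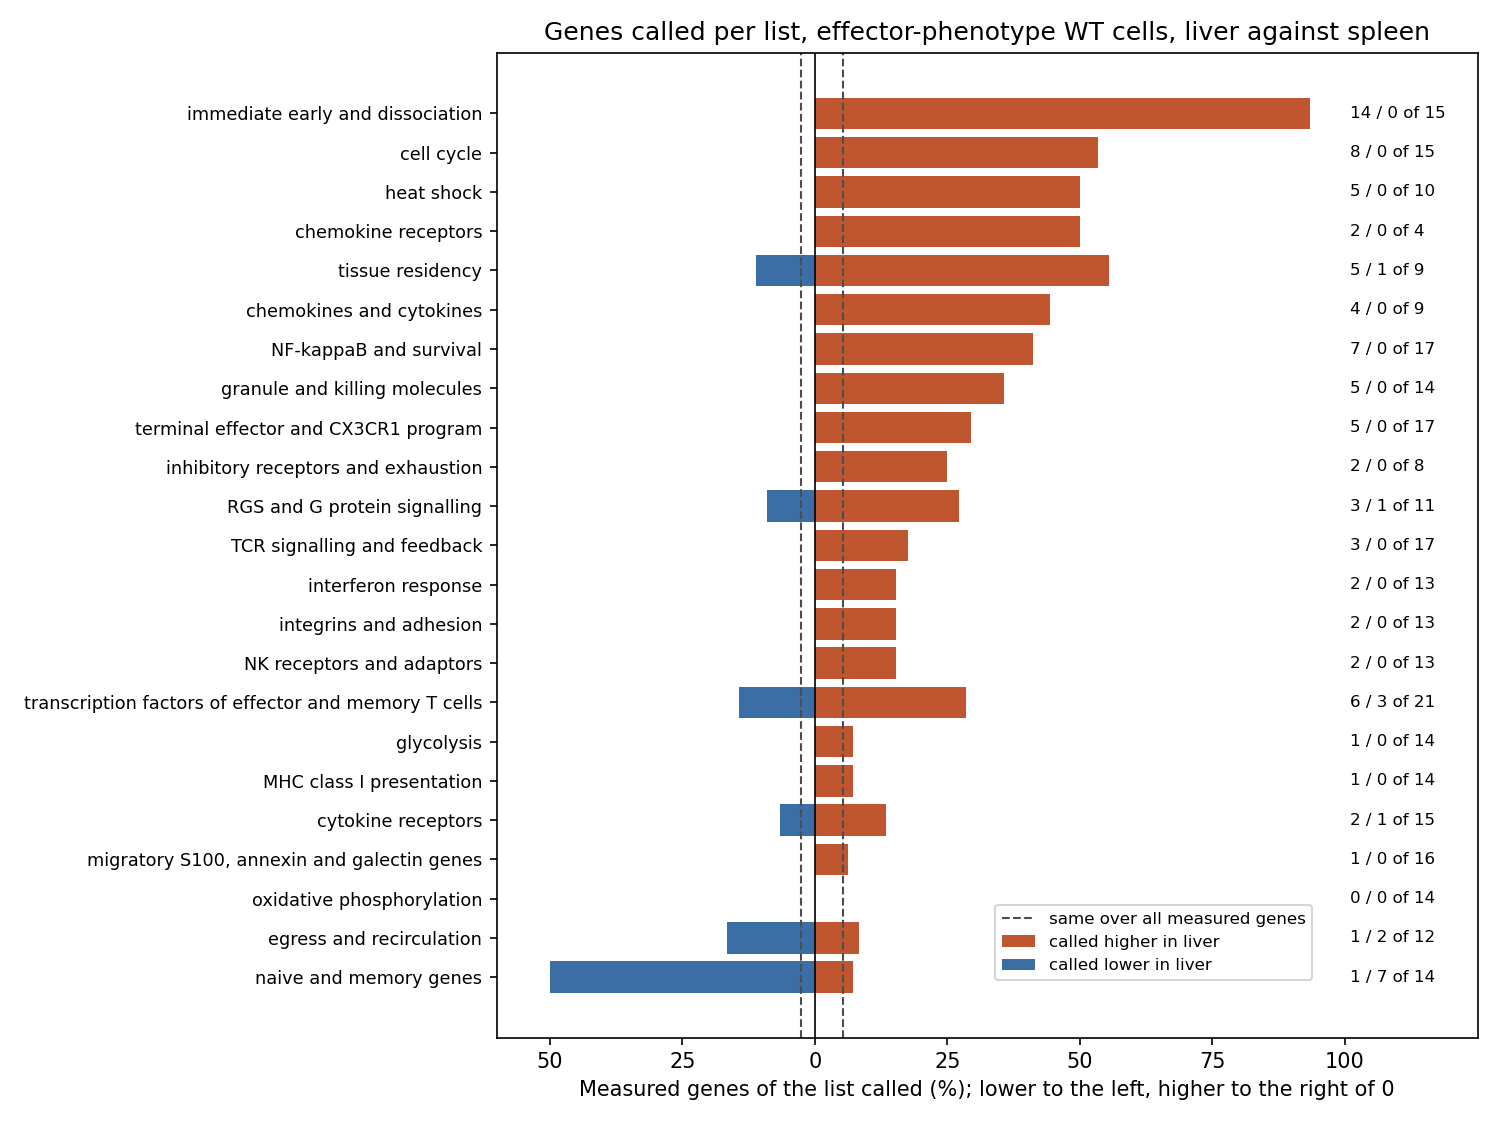
Share of the measured genes of each of 23 lists called higher (orange, right of 0) or lower (blue, left of 0) in liver than spleen effector-phenotype WT cells; text gives higher / lower of measured. Dashed lines give the same over all 7330 measured genes (5.39% and 2.54%). Immediate early genes reach 14 of 15 to the right and naive and memory genes 7 of 14 to the left.

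Early response genes were spread over most liver cells. After thinning to 2000 UMIs, the summed UMIs of Fos, Jun, Dusp1 and Nr4a1 were 0 in 87 of 103 spleen cells (84.5%, 76.0 to 90.9) and in 46 of 228 liver cells (20.2%, 15.2 to 26.0). The lowest, median and highest cells had 0, 0 and 1 UMIs in spleen and 0, 3 and 38 in liver. The 46 liver cells at 0, a class cut from this score after values were seen, were compared with the spleen cells. Clone 1, described below, held 21 of these 46 cells and 21 of the 103 spleen cells. The 46 cells had Gzmb at 1022 CPM (826 to 1250) against 214 (155 to 287), and Ccl4 at 793 (622 to 998) against 131 (86.4 to 191). Their Il7r stood at 76.1 (30.6 to 157) against 296 (226 to 380). Their Klf2 level was 2565 against 1927. Other early genes were not at the spleen level in them: Junb stood at 1283 CPM against 267, and Hspa1a at 109 against 0. Outside clone 1, the 25 liver cells at 0 and 82 spleen cells had Gzmb at 960 (708 to 1273) and 183 (123 to 261) and Il7r at 140 (56.3 to 288) and 366 (279 to 471). Junb stood at 1840 (1483 to 2257) and 305 (226 to 402) in these cells, and Klf2 at 3340 and 1872.

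The same organ comparison in other WT cells shows which values are shared across cells of the 2 libraries. Memory-phenotype cells had at least 2 summed UMIs of Cxcr3 and Il2rb (2080 in spleen, 1493 in liver), and naive-phenotype cells at least 3 of a set of naive-cell genes that includes Ccr7 and Lef1 and 0 of Cxcr3 and Il2rb (1321 and 328). Both had 0 UMIs of the choosing receptors, Pdcd1 and Ncr1. These definitions were chosen after the values were seen, because nearly every cell had UMIs of Nkg7 (85.9% and 85.7% of the naive-phenotype cells). Immediate early genes were called higher in liver in 16 of 16 measured in memory-phenotype and 15 of 16 in naive-phenotype cells, where 9.78% and 3.97% of all measured genes were called higher. Fos had log2 ratios of 4.24 (4.14 to 4.34) and 4.40 (4.25 to 4.55) there, and Hspa1a 7.35 and 7.71. The liver library was thus high in these genes in other cells too, and the part of this in the effector-phenotype values was not tested. Klf2 (1.60 and 1.81) and Cd69 (1.13 and 1.15) were also higher in both. Of chemokines and cytokines, 9 of 12 measured genes were called higher in memory-phenotype and 4 of 9 in naive-phenotype cells. Of NF-kappaB and survival genes, 10 of 17 and 6 of 17 were higher, and of the terminal effector list 13 of 17 and 7 of 13. No gene of these lists was called lower, and the shares of all genes higher were the same 9.78% and 3.97%.

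Other genes went less alike, though the differences between sets of cells were not tested. Il7r had a log2 ratio of -1.54 in effector-phenotype, -0.63 (-0.70 to -0.56) in memory-phenotype and 0.06 (-0.06 to 0.19) in naive-phenotype cells. Gzma had 0.85 in effector-phenotype and 5.39 (5.10 to 5.71) in memory-phenotype cells, whose levels were 7.11 CPM in spleen and 299 in liver, both under those of the effector-phenotype cells. Cxcr6 had 0.27 and 1.55 (1.42 to 1.68), and 13 of 14 residency genes were higher in memory-phenotype cells, beside the 9.78% of all genes there. The residency list was also higher in naive-phenotype cells, in 6 of 11 measured genes beside 3.97% of all genes there. Its median log2 ratio was 1.15 in naive-phenotype and 1.17 in effector-phenotype cells, where 5 of 9 were higher.

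**Figure D4:**
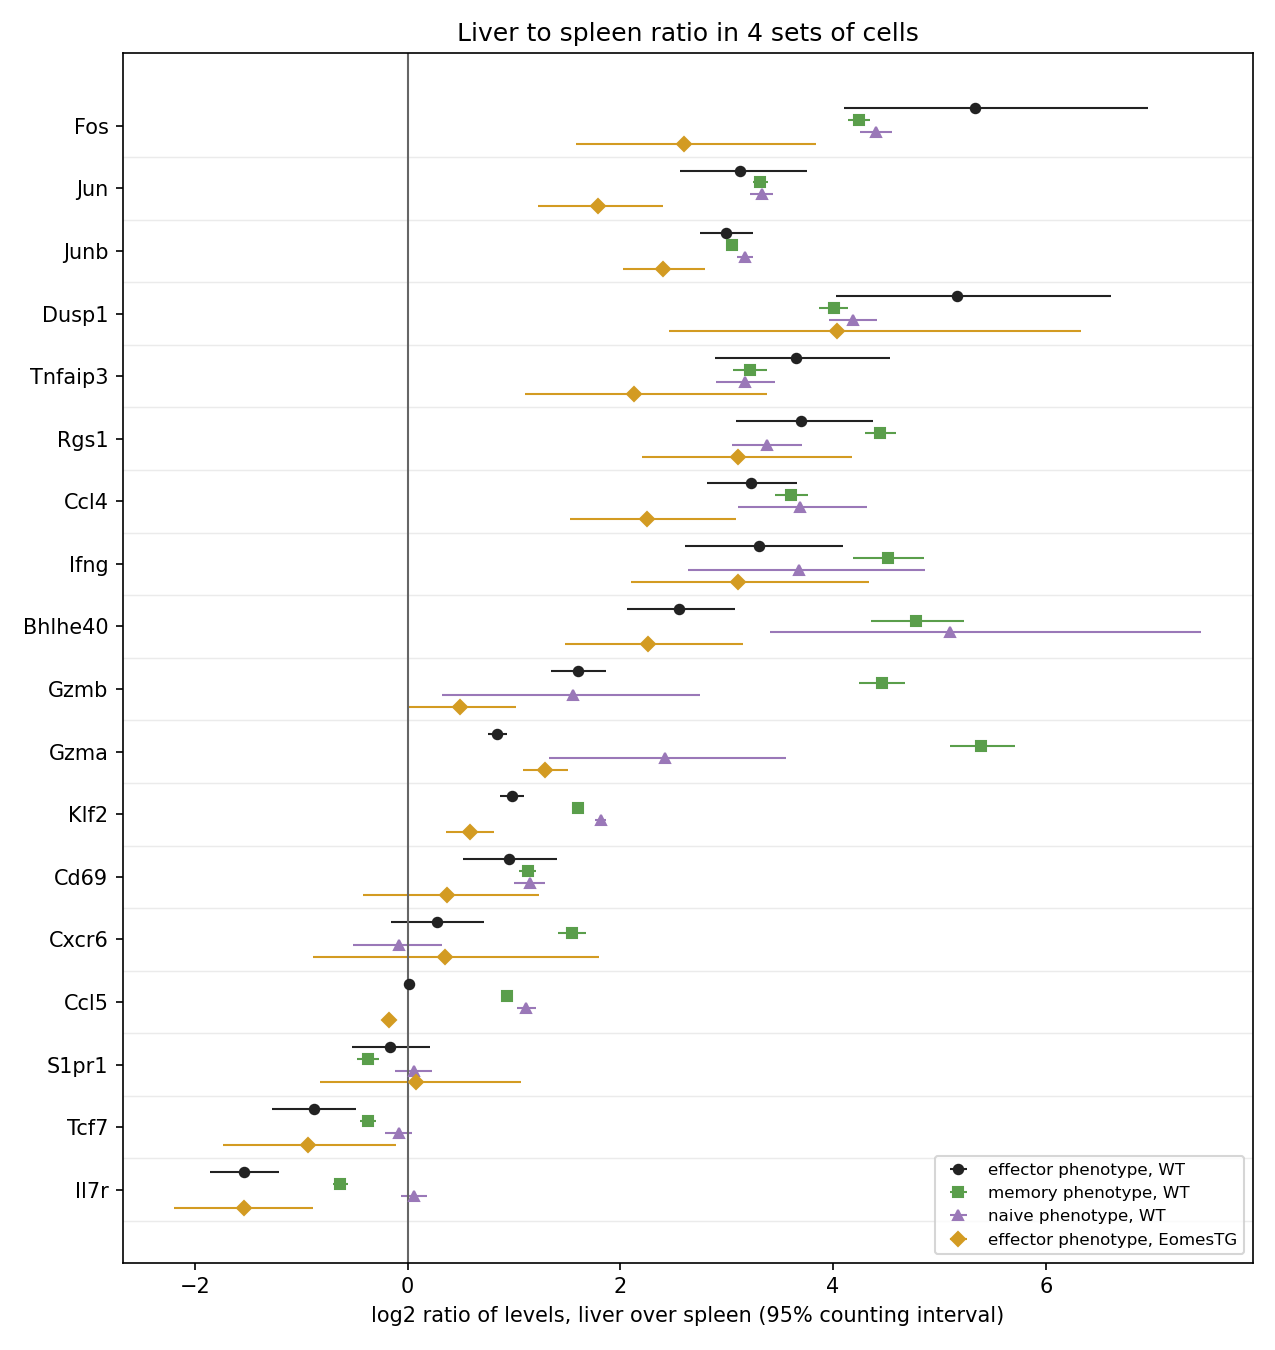
Log2 ratio of liver to spleen levels for 18 genes in effector-phenotype WT cells (black), memory-phenotype WT cells (green), naive-phenotype WT cells (purple) and effector-phenotype EomesTG cells (yellow), with 95% counting intervals. Fos, Jun, Junb, Dusp1 and Tnfaip3 lie to the right of 0 in all 4 sets, and Il7r lies furthest left in the 2 effector-phenotype sets.

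The effector-phenotype cells of the EomesTG pool, 29 in spleen and 64 in liver, share no cells or mice with the WT cells. Of the 395 genes higher in WT liver, 262 were measured there; 77.1% had the same direction, against 52.1% of all 3577 genes measured, and 52.3% reached 1.5-fold, against 18.5%. Of the 186 lower genes, 78 were measured, 62.8% had the same direction against 47.9%, and 29.5% reached 1.5-fold against 12.7%. Immediate early genes were called higher in 12 of 13 measured, beside 5.52% of all genes measured in these cells. Il7r had a log2 ratio of -1.54 (-2.19 to -0.89), Gzma 1.29 (1.09 to 1.51) and Gzmb 0.49 (0.00 to 1.02). Eomes itself, which in these mice includes the transgene as far as its reads map there, had -1.27 (-2.02 to -0.51).

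TCR sequences tied the cells of the 2 organs together. A clone is a set of cells with the same V gene, J gene and CDR3 nucleotides of the productive beta chain; a productive beta chain was found in 94 spleen and 226 liver cells, in 67 and 131 clones. Both organs had 14 clones in common among these cells, which held 40 spleen (42.6%, 32.4 to 53.2) and 93 liver cells (41.2%, 34.7 to 47.9). Cells in clones of 2 or more numbered 33 of 94 (35.1%, 25.5 to 45.6) and 113 of 226 (43.3 to 56.7%), against 4.55% and 17.3% of the other kept cells with a beta chain, each counted within its own set. A clone found anywhere in the other organ's library was carried by 53.2% (42.6 to 63.6) and 50.9% (44.2 to 57.6), against 2.86% and 11.3% of the other kept cells. With 1 pool of 3 mice a shared clone cannot be assigned to a mouse.

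The 3 largest shared clones are shown by their CDR3 sequence, since the clones were matched between organs by the beta chain. Capitals mark the middle bases, outside the longest start and end that at least 20% of the other distinct CDR3s with the same V or J gene share.
Clone 1 beta chain: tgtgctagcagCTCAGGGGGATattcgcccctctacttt
Clone 1 alpha chain: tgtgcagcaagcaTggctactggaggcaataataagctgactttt
Clone 2 beta chain: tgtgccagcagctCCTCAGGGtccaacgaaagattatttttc
Clone 3 beta chain: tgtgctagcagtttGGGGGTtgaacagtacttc
Clone 1 (TRBV29 with TRBJ1-6, TRAV10 with TRAJ56) was the largest in both organs, with 21 of 94 spleen (22.3%, 14.4 to 32.1) and 65 of 226 liver cells (28.8%, 22.9 to 35.1). All 159 of its barcodes with a productive alpha chain had the same one as the chain with the most UMIs. Clone 2 (TRBV3 with TRBJ1-4) had 4 and 6 effector-phenotype cells and clone 3 (TRBV29 with TRBJ2-7) had 1 and 6. Each of these had 2 distinct alpha chains, with the main one in 18 of 19 and 8 of 9 barcodes, so the beta chain alone does not settle that all their cells are of 1 lineage.

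Clone 1 had 44 kept cells in spleen and 129 in liver, of which 47.7% (32.5 to 63.3) and 50.4% (41.5 to 59.3) met the rule. A Pdcd1 UMI was found in 18.2% and 21.7% of the kept cells of the clone. So the share of this clone with the phenotype stood at like values in the 2 organs, with wide intervals.

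Within clone 1, 120845 spleen and 462733 liver UMIs allowed the comparison in 1 lineage. Ccl4 stood at 57.9 and 687 CPM, a log2 ratio of 3.57 (2.51 to 4.89), and Nr4a1 had 1 and 146 UMIs. Fos had 0 and 69 UMIs. Gzmb stood at 521 and 927, a log2 ratio of 0.83 (0.45 to 1.24), against 1.98 (1.63 to 2.33) in the cells outside the clone. Klf2 had 0.32 (0.09 to 0.56) in the clone, under 1.5-fold, and 1.22 (1.10 to 1.35) outside it. Il7r had 7 and 1 UMIs, too few to be measured. Outside the clone Il7r had -1.29 (-1.61 to -0.96). With the 14 shared clones weighted equally, Gzmb stood at 415 and 934 CPM, Ccl4 at 140 and 2155 and Il7r at 289 and 107.

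Cell cycle genes were called higher both within the clone and outside it. Most of those called among all effector-phenotype cells fell under 1.5-fold when each clone counted once. Of 15 measured, 8 were called higher in liver among all effector-phenotype cells, 9 within clone 1 and 5 outside it, where 5.39%, 5.08% and 4.72% of all genes were. In memory-phenotype cells 10 of 15 were higher and in the EomesTG effector-phenotype cells 8 of 14, beside 9.78% and 5.52% of all genes. In naive-phenotype cells 9 of 15 were lower, beside 5.4% of all genes. Top2a, the DNA-unwinding enzyme of dividing cells, stood at 145 (115 to 181) and 254 (228 to 281) CPM in all cells, a log2 ratio of 0.81 (0.45 to 1.18). Its ratio was 1.64 (0.90 to 2.48) within clone 1, 0.25 (-0.18 to 0.69) outside it, and 0.02 when each clone counted once. In that last setting Ccna2 had 0.11, Cdk1 0.55 and Ccnb1 0.57, and Birc5 had 0.59, just above 1.5-fold. A Top2a UMI was found in 12 of 109 spleen and 46 of 243 liver cells.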

How the data were processed

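Expression was measured in CD8 T cells sorted from a pool of 3 mice per strain, with 1 library per strain and organ. The authors deposited UMI counts per gene and barcode, made with Cell Ranger on mm10 per the submitters' processing notes (version 3.1.0 per the file headers), and counts of UMIs and reads per receptor contig. Barcodes with at least 500 UMIs, 300 genes and under 10% mitochondrial UMIs were kept. Doublets were not called; barcodes with 2 productive beta chains (10 spleen and 23 liver cells) stayed in, with an alternative that leaves them out.

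UMIs were summed over the chosen cells and divided by their total and scaled to 1000000 (CPM). Levels have exact Poisson intervals, ratios exact conditional binomial intervals and shares Clopper-Pearson intervals. Genes needed 20 UMIs over both organs. A call needed 1.5-fold and an interval on that side. The calculation was tested on simulated data. The cells and the 23 gene lists were chosen with earlier results of these data known. Named genes were the 12 highest and 12 lowest called genes by the interval bound nearest to equality that kept 1.5-fold with each clone counted once, without antigen receptor, mitochondrial, ribosomal, unnamed-model, sex-linked and non-T-cell marker genes. Added to them were a set of effector genes and up to 5 called genes per list. Some genes that these rules select are not reported here. Gene positions are from GENCODE M21 (GRCm38), where 30934 of 31053 gene IDs matched. Python 3.11.15, numpy 2.4.6, scipy 1.17.1, pandas 2.3.3 and matplotlib 3.10.9 were used. The results were recomputed under 15 alternative choices, and 2 more were chosen after seeing the data.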

Additional observations from a re-analysis of the deposited data

Results flagged for a closer look

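Called genes of the lists went in opposite directions in the 2 pools of mice in 3 cases; the difference between the pools was not tested. Ccr2, a receptor for monocyte chemokines, had a log2 liver to spleen ratio of 0.60 (0.15 to 1.08) in WT and -1.63 (-2.71 to -0.55) in EomesTG effector-phenotype cells. Id3, an inhibitor of E proteins, had -1.35 (-2.28 to -0.42) in WT and 2.04 (0.03 to 5.17) in EomesTG, the latter from 2 and 24 UMIs. Klrc1, an NKG2 receptor chain, had 0.64 (0.23 to 1.07) and -0.66 (-1.26 to -0.04).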

How the results depend on the processing

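No paired analysis was possible because each organ is 1 library of 1 pool. Counts of genes higher in liver were 160 with cells thinned to 2000 UMIs before the rule and 248 at a fold of 2 (395 as reported). Genes lower numbered 73 thinned, 306 without mitochondrial and ribosomal protein genes, 114 at 50 UMIs per gene and 98 at a fold of 2 (186 as reported). The share of effector-phenotype cells, 2.04% in spleen and 7.71% in liver as reported, was 1.41% and 5.46% at a sum of 3 UMIs, 1.24% and 4.98% thinned, and 1.66% and 5.89% without the cells of the largest clone. It was 2.32% and 9.08% without the conditions on Pdcd1 and Ncr1, and 1.84% and 6.35% without cells with UMIs of Tyrobp, Fcer1g, Klrb1c or Trdc, a setting chosen after seeing the data. This liver share was above the spleen share in each of these settings. With clones defined by beta and alpha chain, 12 were found in both organs and held 34 of 78 spleen and 74 of 190 liver cells. Named gene ratios stayed within counting error in 383 of the computed cases and moved beyond it in 44, without a change of direction in a called gene; the cause was not tested. Calls were not counted for each clone counted once and for the mean over cells. Genes with few spleen UMIs are limited by the 530419 UMIs of that side, where the interval of 0 UMIs reaches 6.95 CPM.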
